A study of Mus musculus with 7 samples.

Results

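Malat1, Neat1, Gas5, Snhg1, Snhg8, Snhg12, Kcnq1ot1, H19 and Meg3 are long noncoding RNAs of nuclear bodies, of small nucleolar RNA host genes and of imprinted domains. They were taken as the rows whose gene name equals 1 of these names, which gave 9 of the 49585 genes listed for each library. Total RNA was sequenced from MS-1 cells, a mouse endothelial line derived from pancreatic islets, in 3 control libraries of wild-type genotype and 4 libraries with LPL overexpression. LPL, lipoprotein lipase, splits the triglyceride of blood lipoproteins so that tissues can take up the fatty acids. Both groups were grown in DMEM and are labelled as 1 line, without a vector-only control among the libraries used. How LPL was introduced is not given in the sources used here. Whether replicates were separate cultures is not stated either, so the p-values cover the spread of these libraries, which may be technical. The comparison asks how the cells' RNA differs when LPL is overexpressed.

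Reads in the sense orientation summed to between 24328418 and 29210847 per library, and levels are given as CPM, the share of these reads scaled for library size and composition. Lpl itself had 8 reads in the controls together and 430 to 459 CPM with LPL overexpression. A gene was called when the adjusted p of edgeR's quasi-likelihood test was below 0.05. By this rule 43.2% of the 13639 genes tested were called, 21.9% as higher and 21.3% as lower with LPL overexpression. In 44.6% of the genes tested the CPM of the groups did not overlap (22.8% higher and 21.8% lower). Endothelial markers were abundant in every library, with a summed level of 6058 to 6161 CPM in the controls and 5049 to 5235 CPM with LPL overexpression. Of the 12 endothelial markers, 11 could be tested, of which 1 rose and 7 fell. Cldn5, the remaining marker, had too few reads for the test and none with LPL overexpression. All 12 melanocyte markers rose, from a summed 3.22 to 3.88 CPM in the controls, where Tyr, Tyrp1, Dct, Mlana, Oca2 and Sox10 had no read, to between 1393 and 1459 CPM. The melanocyte genes move with every group difference given here, and their part in the results was not tested. In these bulk samples fewer cells of a type and less RNA per cell cannot be told apart.

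Long noncoding RNAs act as RNA and not as templates of functional proteins. Malat1 accumulates in nuclear speckles, which store splicing factors, and Neat1 is the scaffold of paraspeckles, nuclear bodies that hold RNA-binding proteins. The Snhg genes and Gas5 carry small nucleolar RNAs (snoRNAs) in their introns. Those snoRNAs guide the chemical modification of ribosomal RNA, while the spliced host RNA is often short-lived because translation exposes it to nonsense-mediated decay. Kcnq1ot1, H19 and Meg3 are expressed from 1 parental chromosome and mark imprinted domains, where Kcnq1ot1 silences neighbouring genes in cis. H19 also carries the microRNA miR-675.

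Short stretches of sequence show what marks each class of these RNAs. Malat1 ends without a poly(A) tail, and its 3′ end is protected by a triple helix in which U-rich stretches clasp a stretch of A. The sense-strand sequence below comes from the GENCODE vM21 transcript at chr19:5795913-5796094 (mm10, minus strand), with TTTTTCTTTT, TTTTGCTTTTT and the run of 12 A in capitals. Most of the letters after the run belong to the tRNA-like RNA that is cut from the Malat1 precursor.
Malat1 3′ element: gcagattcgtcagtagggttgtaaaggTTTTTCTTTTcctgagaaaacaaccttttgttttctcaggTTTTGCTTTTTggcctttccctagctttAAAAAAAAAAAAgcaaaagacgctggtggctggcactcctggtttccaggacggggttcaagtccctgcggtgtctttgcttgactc
Windows of the same length were taken at overlapping steps along GENCODE transcripts and searched on the transcript strand. Of 2431253 windows, 2 held both stretches and at least 10 A in a row. The stretches were taken from Malat1, which was among the transcripts searched, so both windows may be its own.

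The host genes of snoRNAs are known for starts made of pyrimidines (C or T), the 5′ terminal oligopyrimidine motif of ribosomal protein genes. The first 50 bases after the RefSeq start sites (GRCm38.p6, the assembly of mm10) are shown because such a start is the known mark of the class. The unbroken pyrimidine run at the first base is in capitals.
Gas5, first start (chr1:161034601-161034650, plus strand): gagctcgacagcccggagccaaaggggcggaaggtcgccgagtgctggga
Gas5, second start (chr1:161035166-161035215, plus strand): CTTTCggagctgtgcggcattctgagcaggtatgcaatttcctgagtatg
Snhg1 (chr19:8723487-8723536, plus strand): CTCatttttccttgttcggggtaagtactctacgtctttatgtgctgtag
Snhg8 (chr3:123508287-123508336, minus strand): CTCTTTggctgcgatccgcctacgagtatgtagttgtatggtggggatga
Snhg12 (chr4:132308678-132308727, plus strand): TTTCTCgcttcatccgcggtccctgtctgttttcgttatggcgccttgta
The run was 6 bases at Snhg8 and Snhg12, 5 at the second start of Gas5 and 3 at Snhg1, and the first start of Gas5 begins with a purine. Of 32851 RefSeq mouse starts, 4.44% begin with a run of at least 5. Malat1 begins with a run of 1 base, and Kcnq1ot1 and both starts of Meg3 begin with a purine.

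Each host also carries snoRNAs, of which 1 per host is shown because these are the products that the libraries did not count. The sequences are GENCODE vM21 transcripts on mm10. Capitals mark the letters TGATGA (box C) in the first part and the last CTGA (box D) of the C/D class, or the ACA close to the end of the H/ACA class.
Snord47, within Gas5 (chr1:161038082-161038158, plus strand): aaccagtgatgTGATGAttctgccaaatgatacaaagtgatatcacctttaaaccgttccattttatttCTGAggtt
Snord22, within Snhg1 (chr19:8725866-8725991, plus strand): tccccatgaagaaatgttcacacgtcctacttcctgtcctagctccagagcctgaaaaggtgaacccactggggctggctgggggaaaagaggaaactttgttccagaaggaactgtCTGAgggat
Snora24, within Snhg8 (chr3:123507937-123508066, minus strand): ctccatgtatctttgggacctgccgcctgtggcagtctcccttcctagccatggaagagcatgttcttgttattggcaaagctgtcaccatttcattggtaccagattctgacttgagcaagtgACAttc
Snord99, within Snhg12 (chr4:132310691-132310764, plus strand): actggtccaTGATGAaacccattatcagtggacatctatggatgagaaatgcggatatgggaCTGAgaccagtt
TGATGA was found in Snord47 and Snord99 but not as these exact letters in Snord22. Of 1507 GENCODE snoRNA transcripts, searched on the transcript strand, 23.2% hold TGATGA in their first part, 79.5% hold CTGA and 18.3% have ACA 3 bases before the end. The files list 33 rows with snoRNA, microRNA or predicted-gene names inside these genes on the same strand, and they had 1 read over all 7 libraries, from a Snora16a copy within Snhg12. How the counting treated reads shared by a small RNA and its host is not given in the sources used here. The levels below are those of the host genes, and the snoRNAs were not measured.

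H19 hosts miR-675, whose mature arms are shown with the seed (bases 2 to 8) in capitals, from RefSeq on GRCm38.p6.
mmu-miR-675-5p (chr7:142577112-142577133, minus strand): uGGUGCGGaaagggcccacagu
mmu-miR-675-3p (chr7:142577078-142577099, minus strand): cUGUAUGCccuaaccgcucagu
The 2 seeds differ, and the Mir675 row had no read in any library.

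Of the 9 RNAs, 8 passed the filter on low counts. Snhg1 rose, Gas5 and H19 fell, and the other 5 did not pass, against the 43.2% of all genes that were called. The 3 called RNAs are also those whose groups did not overlap in CPM, which was so for 44.6% of all genes. Apart from H19, the log2 fold changes lay between -0.18 and 0.14. The median log2 fold change of the 8 was -0.07, and that of all genes tested was 0.00.

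**Figure D1:**
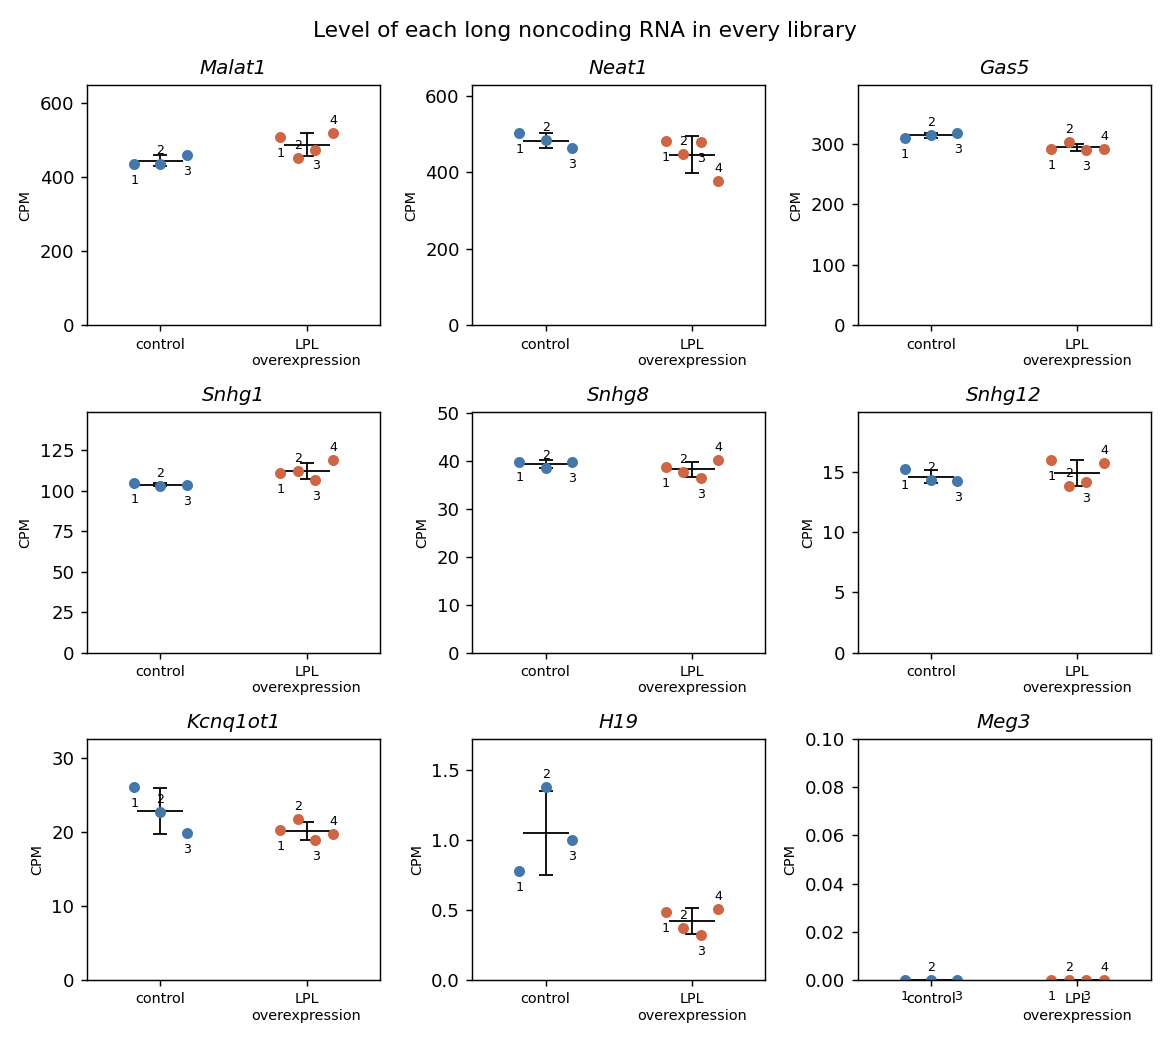
Level in CPM (linear axis from 0) of each RNA in the 3 control and 4 LPL overexpression libraries, with the replicate number beside each point and the mean ± SD as black lines. Gas5 and H19 lie lower and Snhg1 higher with LPL overexpression without overlap, Neat1 is lowest in replicate 4 of LPL overexpression, and Meg3 is at 0 throughout.

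The level per kilobase of annotated exon was highest for Gas5, at 83.6 ± 1.16 CPM per kilobase in the controls (SD, n = 3) and 78.2 ± 1.54 with LPL overexpression (SD, n = 4). Malat1 followed at 63.5 ± 2.08 and 69.9 ± 4.45 CPM per kilobase. Snhg8 was next with 46.2 ± 0.884 and 44.8 ± 1.85. Its gene is short, and its CPM was below that of Snhg1. Snhg1 stood at 34.9 ± 0.291 and 37.8 ± 1.69, Neat1 at 23.3 ± 0.959 and 21.5 ± 2.37, and Snhg12 at 9.001 ± 0.348 and 9.20 ± 0.659 CPM per kilobase. H19 and Kcnq1ot1 were at 0.443 ± 0.128 and 0.271 ± 0.0365 in the controls and at 0.177 ± 0.0380 and 0.239 ± 0.0145 with LPL overexpression. Neighbours in this order did not overlap between libraries of a group, except H19 and Kcnq1ot1, which overlapped with LPL overexpression. The order depends on the annotated length. The exons of Snhg1 (2969 bases) and Snhg8 (853 bases) cover the whole gene, introns included, where GENCODE lists retained-intron transcripts, those of Gas5 cover 3760 of 4118 bases, and Kcnq1ot1 is listed as 1 block of 84395 bases.

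Among all long noncoding genes of GENCODE vM21, 10443 of which are in the files, Malat1 ranked 4, Neat1 5 and Gas5 6 by reads over the 7 libraries. These ranks and the shares that follow count every row so classed, and the rows above Malat1 include Gm42418, a locus known to overlap ribosomal RNA, and Cct6a, the symbol of a chaperonin subunit. Snhg1 ranked 13, Snhg8 32, Kcnq1ot1 48, Snhg12 64 and H19 712. The 9 RNAs held between 12.1% and 12.7% of the reads on long noncoding genes in every library. Long noncoding genes in turn held between 1.11% and 1.17% of all sense reads. Of the 1075 long noncoding genes tested, 92 rose and 129 fell, 20.6% in all, with a median log2 fold change of -0.02. Of all genes tested, 43.2% were called. The shares called were not matched for reads per gene, on which a call also depends.

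Malat1 and Neat1 lie side by side on chromosome 19, both on the minus strand. Malat1 (ENSMUSG00000092341.2, chr19:5795690-5802672) was measured at 434, 437 and 460 CPM in the controls and at 507, 451, 474 and 519 CPM with LPL overexpression. Replicate 2 of LPL overexpression lay within the controls and the other 3 lay above them. The log2 fold change was 0.14 (SE 0.0489) with an adjusted p of 0.0530, so Malat1 did not pass. This call depends on the setting, since Malat1 passed under 10 of 17 alternatives, with log2 fold changes between 0.10 and 0.18. It passed without control 3 (0.17) and without replicate 2 (0.18), 3 (0.15) or 4 (0.11) of LPL overexpression.

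Neat1 (ENSMUSG00000092274.2, chr19:5824708-5845478) was at 503, 484 and 463 CPM in the controls. With LPL overexpression the values were 483, 447, 480 and 377 CPM. Replicate 4 is the lowest of all 7 libraries for Neat1 and the highest for Malat1, while replicates 1 and 3 of LPL overexpression lay within the controls. The log2 fold change of Neat1 was -0.11 (SE 0.0992, adjusted p 0.422), and without replicate 4 it was -0.04. The 95% interval with all 7 libraries ran from -0.31 to 0.08.

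The ratio of Malat1 to Neat1 CPM, chosen after the values had been seen, was 0.864, 0.902 and 0.995 in the controls. It was 1.05, 1.01, 0.988 and 1.38 with LPL overexpression, with replicate 3 inside the control range. An exact two-sided permutation test gave p = 0.143, or 0.214 adjusted over the 3 ratios examined.

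Paraspeckle proteins, which assemble on Neat1, showed small changes in both directions. Of 18 tested, 2 rose and 4 fell, against 21.9% and 21.3% of all genes tested, and the median log2 fold change was -0.03. The core proteins Nono (log2 fold change -0.07, SE 0.0246, adjusted p 0.0134) and Pspc1 (-0.10, SE 0.0355, adjusted p 0.0180) fell, and Sfpq, which binds both, had 0.02 (adjusted p 0.484). The calls of Nono and Pspc1 were not rerun under the alternatives. Rbmx, an RNA-binding protein of splicing, rose from 59.9 ± 2.17 to 70.2 ± 1.64 CPM (log2 fold change 0.23, adjusted p 5.52e-07). Nudt21, a subunit of the 3′ end processing complex that sets the short and long forms of Neat1, fell from 21.8 ± 0.566 to 18.7 ± 1.44 CPM (log2 fold change -0.22, adjusted p 7.65e-04). Taf15 rose by 0.10 on the log2 scale (adjusted p 0.00323), or by 0.08 without control 3 (adjusted p 0.0566). Nuclear speckle proteins, the company of Malat1, had 5 of 15 higher and 2 lower, against the same shares, with a median of 0.04. The splicing factors Srsf2 (log2 fold change 0.11, adjusted p 2.01e-04), Srsf5 (0.08, adjusted p 0.00422) and Prpf8 (0.10, adjusted p 0.00120) were among those that rose, all by less than 0.12.

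Of the 10 genes tested within 100 kb of Malat1, 2 rose and 3 fell, and of the 12 around Neat1, 2 rose and 5 fell. Most genes are in both counts. Of all genes tested, 21.9% rose and 21.3% fell. Frmd8 lies 4224 bases from Neat1 and rose by 0.09 on the log2 scale (SE 0.0321, adjusted p 0.0180), a call lost without control 1, control 2 or replicate 3 of LPL overexpression (0.08 in each case). The largest falls among these genes were those of Cdc42ep2, an effector of the GTPase Cdc42 (-0.46, adjusted p 0.0423, lost under 8 of 17 alternatives, including without any single library except replicate 4 of LPL overexpression), and Ehbp1l1 (-0.29, adjusted p 1.62e-12). Slc25a45 (-0.15), Dpf2 (-0.19) and Pola2 (-0.15), a subunit of DNA polymerase alpha, also fell, and Ltbp3, a latent TGF-beta binding protein, rose by 0.11.

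Gas5 and Snhg1 both passed the test and moved in opposite directions. Gas5 (ENSMUSG00000053332.13, chr1:161034422-161038539, plus strand) is a host of box C/D snoRNAs whose RNA is known to build up when growth stops. Its CPM was 309, 315 and 318 in the controls and 291, 303, 290 and 292 with LPL overexpression. All 4 LPL overexpression libraries lay below all controls, with replicate 2 nearest to them. Gas5 fell by 0.10 on the log2 scale (SE 0.0247, adjusted p 0.00130), which is 6.38% by level. With library totals alone in place of composition scaling, the log2 fold change was -0.055 and the adjusted p 0.0612.

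Snhg1 (ENSMUSG00000108414.1, chr19:8723475-8726443, plus strand) hosts a row of box C/D snoRNAs. It was at 105, 103 and 104 CPM in the controls and at 111, 112, 107 and 119 CPM with LPL overexpression. The controls lay within 2 CPM of each other and all 4 LPL overexpression libraries lay above them, replicate 3 by the least. Snhg1 rose by 0.11 on the log2 scale (SE 0.0308, adjusted p 0.00201), or 8.19% by level, and it remained called under all 17 alternatives, between 0.08 and 0.15.

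Because Gas5 and Snhg1 share their scaling within a library, their ratio does not depend on it. The ratio of Gas5 to Snhg1 CPM, chosen after the values had been seen, was 2.96, 3.07 and 3.07 in the controls. With LPL overexpression it was 2.62, 2.71, 2.72 and 2.46, so that all 4 lay below the controls. The exact two-sided permutation test gave p = 0.0286, the smallest that 3 against 4 libraries allow, and 0.0857 after adjustment over 3 ratios. With LPL overexpression Gas5 already lay below all controls and Snhg1 above them. The separation of the ratio was therefore fixed in advance, and its test adds no evidence.

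Snhg8 and Snhg12 did not pass. Snhg8 (ENSMUSG00000104960.1, chr3:123507552-123508404, minus strand), host of the H/ACA snoRNA Snora24, was at 39.9, 38.5 and 39.7 CPM in the controls and 38.7, 37.6, 36.5 and 40.2 CPM with LPL overexpression. The groups overlapped, and the log2 fold change was -0.04 with a 95% interval from -0.12 to 0.04. Snhg12 (ENSMUSG00000086290.8, chr4:132308678-132311024, plus strand), which carries H/ACA and C/D snoRNAs, was at 15.3, 14.3 and 14.3 CPM in the controls. Its LPL overexpression libraries were at 15.999, 13.9, 14.2 and 15.8 CPM, 2 above and 2 below the controls, with a log2 fold change of 0.03 and an interval from -0.09 to 0.15.

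Of 12 other snoRNA host RNAs tested, 2 fell and 10 did not pass, with a median log2 fold change of 0.03. Of all genes tested, 43.2% were called. Snhg6, a host of the C/D snoRNA Snord87, was at 66.2, 64.4 and 69.9 CPM in the controls and at 55.2, 57.0, 55.9 and 54.6 CPM with LPL overexpression, with no overlap. Its log2 fold change was -0.26 (SE 0.0366, adjusted p 3.15e-08). Snhg14, the long host transcript of the Prader-Willi imprinted domain, fell by 0.42 (adjusted p 0.0475) with overlapping groups, and this call was lost under 12 of 17 alternatives, among them without control 2, control 3 or replicate 1, 2 or 3 of LPL overexpression. Snhg5 had -0.06 (adjusted p 0.234).

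The proteins that bind the snoRNAs moved little. Of 15 snoRNP proteins tested, 4 fell and 11 did not pass, with a median log2 fold change of -0.02. Over all genes tested, 21.3% fell. Fbl, the methyltransferase of C/D snoRNPs, fell by 0.11 (adjusted p 0.00968), Ruvbl2, an assembly factor, by 0.10 (adjusted p 0.0116), and Dkc1, the pseudouridine synthase of H/ACA snoRNPs, by 0.07 (adjusted p 0.0273). Each of these 3 calls was lost with library totals alone and with limma on TPM. That of Fbl was also lost without control 1, and that of Ruvbl2 without control 1, control 3 or replicate 3 of LPL overexpression. That of Dkc1 was lost under 12 of 17 alternatives, among them DESeq2, upper-quartile factors, no filter, the replicate block, and without control 2, control 3 (-0.05) or replicate 1, 3 or 4 of LPL overexpression. Among 18 factors of nonsense-mediated decay, which degrades spliced host RNAs, 4 rose and 5 fell, with a median of -0.01. Over all genes tested, 21.9% rose and 21.3% fell. Xrn1, the 5′ to 3′ exonuclease, rose from 44.2 ± 3.27 to 54.9 ± 1.08 CPM (log2 fold change 0.31, adjusted p 1.10e-08). Smg1, the kinase that phosphorylates Upf1, fell from 332 ± 8.73 to 290.2 ± 5.39 CPM (log2 fold change -0.19, adjusted p 4.70e-09), and Magoh, part of the exon junction complex, fell by 0.14 (adjusted p 5.90e-05). Upf1 itself had -0.01 (adjusted p 0.911).

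Genes beside the hosts moved in several ways, against 21.9% of all genes tested that rose and 21.3% that fell. Snhg1 starts 106 bases from Slc3a2, which is read from the opposite strand and encodes the heavy chain of amino acid transporters. Slc3a2 was at 190, 171 and 176 CPM in the controls and at 203, 193, 194 and 208 CPM with LPL overexpression, and rose by 0.16 on the log2 scale (SE 0.0310, adjusted p 1.03e-04). Of the 9 genes tested within 100 kb of Snhg1, 2 rose and 4 fell, the other riser being Stx5a, a Golgi syntaxin, by 0.18. The 4 that fell were Polr2g (-0.17), Ttc9c (-0.12), Hnrnpul2 (-0.11) and the mRNA export factor Nxf1 (-0.09, and -0.05 without a call with library totals alone). Of 5 genes given around Gas5, 2 fell. Zbtb37 overlaps Gas5 on the opposite strand and fell by 0.17 (SE 0.0371, adjusted p 2.15e-04, and 0.0882 with limma on TPM), and Rc3h1, an RNA-binding ubiquitin ligase, fell by 0.29 (adjusted p 0.0131, and 0.0509 without replicate 2 of LPL overexpression). Around Snhg12, 1 of 8 rose, Rcc1, the exchange factor of the GTPase Ran (0.26, SE 0.0402, adjusted p 3.43e-07), and Snhg3, a second snoRNA host there, had -0.01.

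Both genes tested within 100 kb of Snhg8 rose, as did 21.9% of all genes tested. Ndst3, an enzyme of heparan sulfate synthesis, rose by 1.09 (SE 0.0892, adjusted p 5.17e-15). Prss12, a serine protease, lies on the opposite strand 955 bases from the 3′ end of Snhg8 and had no read in the controls. Its level of 0.772, 0.576, 0.476 and 0.684 CPM with LPL overexpression is at least 16.9-fold higher, against a floor of 3 counts over the control group (0.0372 CPM).

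**Figure D2:**
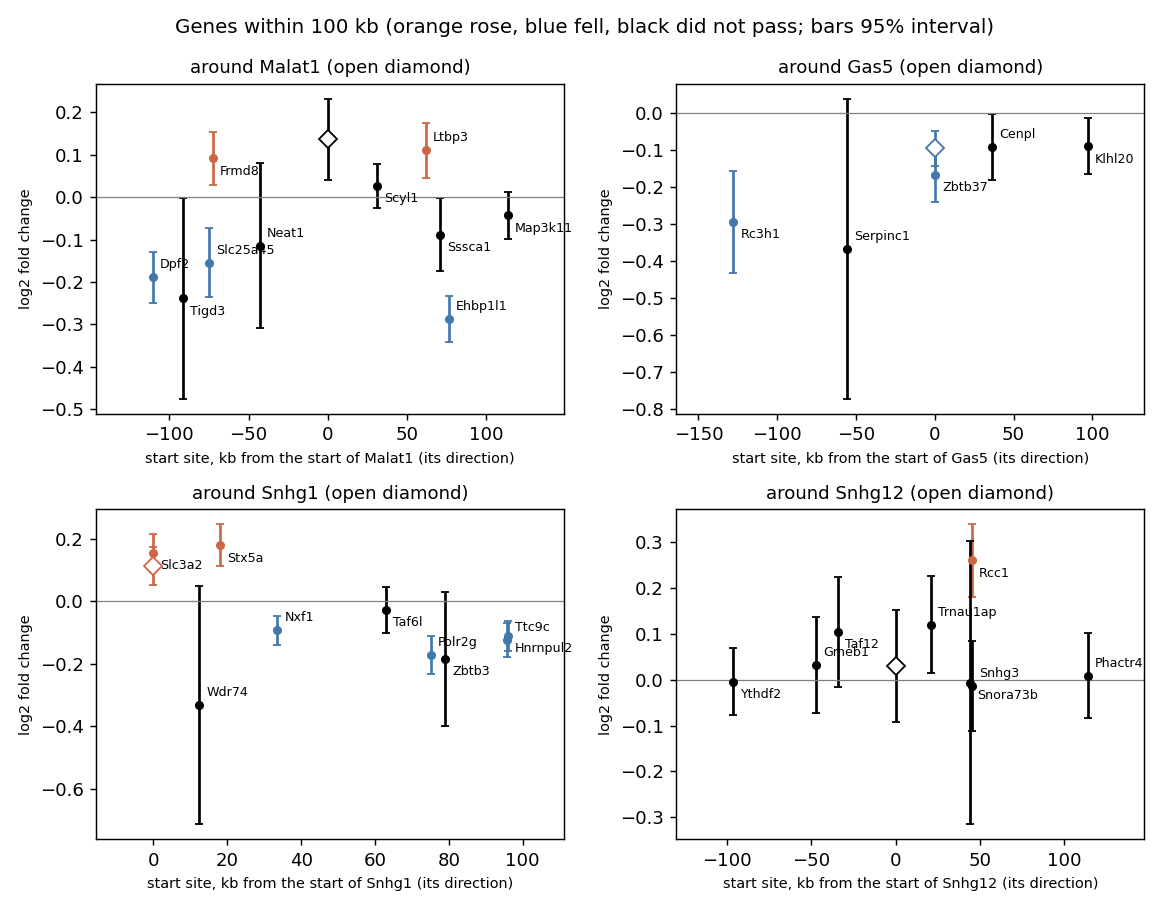
Log2 fold change (LPL overexpression minus control, with 95% intervals) of genes reported within 100 kb of Malat1, Gas5, Snhg1 and Snhg12 against the distance of their start site in kb, counted along the direction of each long noncoding RNA, which is drawn as an open diamond. Slc3a2 and Stx5a rose beside Snhg1, where Nxf1, Polr2g, Ttc9c and Hnrnpul2 fell farther along, and Zbtb37 fell where it overlaps Gas5.

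**Figure D3:**
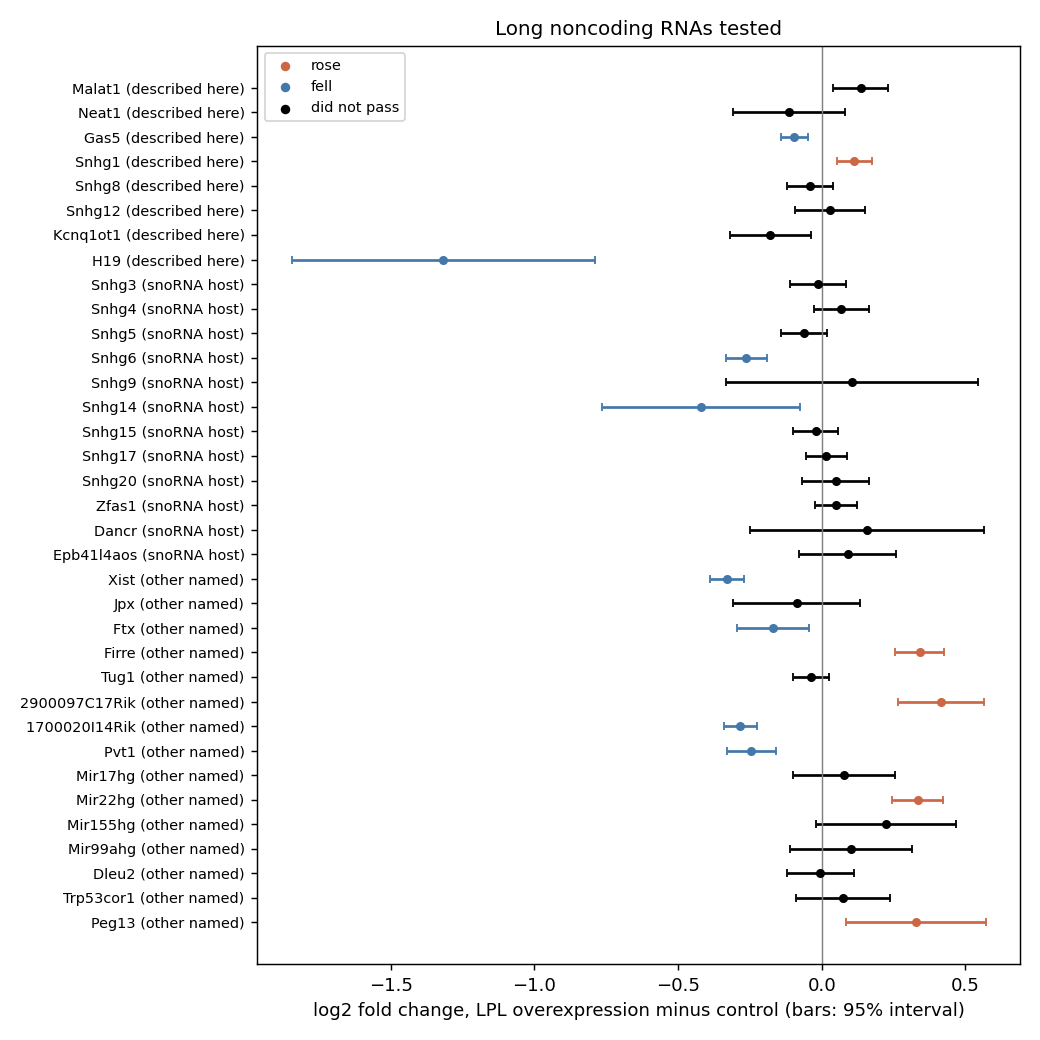
Log2 fold change with 95% interval of the 8 RNAs described here, 12 other snoRNA hosts and 15 other named long noncoding RNAs. H19 has the largest fall and the widest interval, and Gas5, Snhg6 and Xist fell by 0.10, 0.26 and 0.33.

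Of 15 other named long noncoding RNAs tested, 4 rose and 4 fell, against 21.9% and 21.3% of all genes tested. Their median was 0.07. Xist, the RNA that coats the inactive X chromosome, was at 1896, 1785 and 1704 CPM in the controls and at 1378, 1473, 1466 and 1397 CPM with LPL overexpression. It fell by 0.33 (SE 0.0302, adjusted p 2.71e-10), and its share of long noncoding reads went from between 15.0% and 16.2% to between 11.95% and 13.1%. Firre, which anchors the inactive X, rose by 0.34 (adjusted p 5.50e-09). 1700020I14Rik fell by 0.28 (adjusted p 3.21e-11).

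Kcnq1ot1 (ENSMUSG00000101609.1, chr7:143212155-143296549, minus strand) is read from within Kcnq1, on the opposite strand. Its CPM was 26.1, 22.7 and 19.9 in the controls and 20.3, 21.8, 18.9 and 19.8 with LPL overexpression. Controls 1 and 2 lay above all LPL overexpression libraries and control 3 lay among them. The log2 fold change was -0.18 (SE 0.0721, adjusted p 0.0521), so Kcnq1ot1 did not pass. It passed under 6 of 17 alternatives, among them without replicate 2 (-0.22) or 4 (-0.16) of LPL overexpression. Without control 3 the value was -0.26 (adjusted p 5.19e-04) and without control 1 it was -0.08 (adjusted p 0.363).

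Reads of the other orientation were rare over these genes, except over Kcnq1ot1. Their share of oriented reads was between 2.83% and 7.16% over Kcnq1ot1, where Kcnq1 introns lie on the other strand, and at most 0.485% in any library over Malat1, Neat1, Gas5, Snhg1, Snhg8 and Snhg12. For Kcnq1ot1 the share was 3.03%, 3.84% and 7.16% in the controls and 4.03%, 3.31%, 4.61% and 2.83% with LPL overexpression. Control 3 stands apart. The difference of -0.98 percentage points had an exact permutation p of 0.514 (0.900 adjusted over 7 RNAs), and without control 3 it was 0.26. In edgeR, counts of the other orientation were tested for 3759 genes, of which 13.7% were called. Kcnq1ot1 (log2 fold change -0.49, adjusted p 0.163, unadjusted 0.0348) and Neat1 (0.51, adjusted p 0.508, unadjusted 0.220) were the 2 with enough such reads, and neither passed. Without control 3 the log2 fold change of Kcnq1ot1 in these reads was -0.17 (adjusted p 0.816).

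Of 9 genes tested in the Kcnq1ot1 domain, 1 rose and 4 fell, against 21.9% and 21.3% of all genes tested, and their median log2 fold change was -0.05. Kcnq1, a potassium channel, was at 5.63, 5.94 and 6.06 CPM in the controls and at 4.30, 4.00, 5.19 and 3.92 CPM with LPL overexpression, and fell by 0.44 (SE 0.102, adjusted p 3.51e-04). Tnfrsf23, a decoy receptor (-0.43, adjusted p 3.86e-16), Cd81, a tetraspanin (-0.23, adjusted p 2.10e-11), and Osbpl5, a lipid transfer protein (-0.14, adjusted p 2.32e-05), also fell. Slc22a18 rose from 0.767 ± 0.205 to 1.28 ± 0.254 CPM (log2 fold change 0.73, adjusted p 0.00704). Cdkn1c, the growth inhibitor that Kcnq1ot1 is known to silence, was at 1.22, 1.78 and 1.15 CPM in the controls and at 1.75, 1.56, 1.63 and 2.09 CPM with LPL overexpression, which overlapped (0.34, adjusted p 0.135). The ratio of Kcnq1ot1 to Kcnq1 CPM, also chosen after the values had been seen, was 4.63, 3.82 and 3.28 in the controls and 4.72, 5.45, 3.63 and 5.05 with LPL overexpression (exact permutation p = 0.229). The groups overlapped.

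H19 (ENSMUSG00000000031.15, chr7:142575529-142578143, minus strand) had few reads. There were 21, 38 and 26 in the controls and 12, 11, 8 and 14 with LPL overexpression, or 0.777, 1.38 and 0.998 CPM against 0.487, 0.373, 0.317 and 0.504 CPM. All 4 LPL overexpression libraries lay below all controls, and the controls themselves spread widely. H19 fell by 1.32 on the log2 scale (SE 0.269, 95% interval -1.84 to -0.79, adjusted p 5.79e-05), and stayed called under all 17 alternatives, with values from -1.50 to -0.61. Igf2, the growth factor that shares its control region with H19, had 5 reads in the controls and 3 with LPL overexpression and was not tested. Near H19, Mrpl23 (0.01, adjusted p 0.963) and Lsp1 (-0.20, adjusted p 0.0754) did not pass.

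Genes of the H19 domain and network changed in both directions. Of 11 tested, 4 rose and 4 fell, against 21.9% and 21.3% of all genes tested, with a median of 0.01. Plagl1, an imprinted zinc finger factor known to regulate H19 and Igf2, was at 14.7, 13.6 and 11.7 CPM in the controls and at 41.3, 37.9, 41.5 and 41.3 CPM with LPL overexpression. It rose by 1.60 (SE 0.0542, adjusted p 1.12e-27). The family of RNA-binding proteins that bind Igf2 and H19 RNA split. Igf2bp1 was at 2.96, 1.88 and 2.23 CPM in the controls and at 10.8, 11.8, 9.43 and 11.2 CPM with LPL overexpression, a rise of 2.20 (SE 0.111, adjusted p 1.87e-21). Igf2bp3 had no read in the controls and 1.46, 1.52, 1.51 and 1.55 CPM with LPL overexpression, at least 40.6-fold higher against the floor of 3 counts. Igf2bp2, the abundant member in these cells, fell from 179 ± 0.893 to 149 ± 1.85 CPM (-0.27, adjusted p 7.07e-13). Of other imprinted growth genes, Mest (-0.47, adjusted p 1.36e-18) and Grb10 (-0.37, adjusted p 2.39e-14) fell, and Igf2r, which takes up Igf2 for degradation, rose by 0.27 (adjusted p 1.61e-08). The melanocyte markers given above move with all of these, and their part was not tested.

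Meg3 (ENSMUSG00000021268.17, chr12:109541001-109571726, plus strand) had no read of either orientation in any library. A floor of 3 counts over each group allows up to 0.0372 CPM in the controls and 0.0280 CPM with LPL overexpression. Other RNAs of the same imprinted cluster were close to this, with 1 read per group for Rian and for Mirg, and no read of Dlk1, Rtl1 or Dio3. The genes beside the cluster were expressed. Of 3 tested, Yy1, a zinc finger factor, fell by 0.14 (adjusted p 0.00105), and Wdr25 (0.18, adjusted p 0.105, and 0.0434 with library totals alone) and Wars (0.02, adjusted p 0.616) did not pass.

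Imprinted genes of other domains were mixed. Of 16 tested, 5 rose and 5 fell, against 21.9% and 21.3% of all genes tested, with a median of 0.08. Peg10, a gene derived from a retrotransposon, was at 3.52, 2.17 and 2.65 CPM in the controls and at 28.9, 23.6, 26.6 and 28.1 CPM with LPL overexpression, and rose by 3.26 on the log2 scale (SE 0.108, adjusted p 8.95e-16). Ppp1r9a, its imprinted neighbour, rose by 1.02 (adjusted p 1.63e-16), while Sgce of the same cluster had 0.09 (adjusted p 0.0882). Magel2 of the Prader-Willi domain was at 1.48, 1.88 and 1.61 CPM in the controls and at 0.365, 0.102, 0.753 and 0.288 CPM with LPL overexpression (log2 fold change -2.17, SE 0.290, adjusted p 1.80e-07). Ndn of that domain fell by 0.33 (adjusted p 1.78e-09) and Ube3a by 0.31 (adjusted p 3.98e-14), whereas Snrpn had 0.14 (adjusted p 0.257). The factors that maintain imprints and silencing had 1 of 17 higher and 5 lower, against the same shares, with a median of -0.02. Tet3, a 5-methylcytosine dioxygenase (-0.21, adjusted p 2.19e-07), the DNA methyltransferase Dnmt3a (-0.24, adjusted p 1.96e-06) and Trim28, the corepressor of KRAB zinc finger proteins (-0.10, adjusted p 0.00455), fell, and the maintenance methyltransferase Dnmt1 had -0.03 (adjusted p 0.371). The call of Trim28 was lost under 4 of 17 alternatives, namely library totals alone, limma on TPM with either pseudocount and without control 3 (-0.08). Without replicate 2 of LPL overexpression its value was -0.06, with the call kept.

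**Figure D4:**
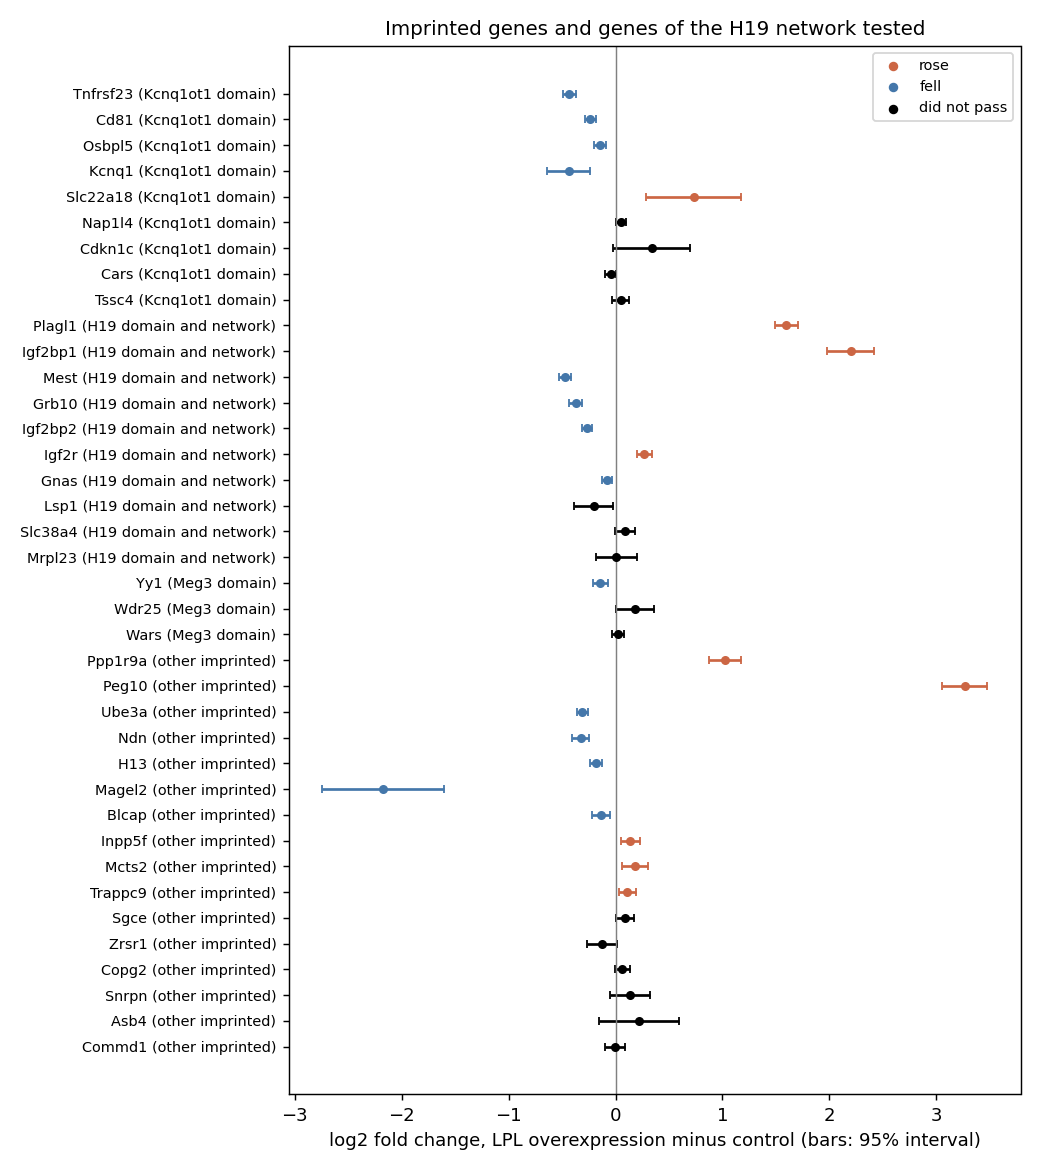
Log2 fold change with 95% interval of the genes tested in the Kcnq1ot1, H19 and Meg3 domains and of other imprinted genes; Igf2bp3, without reads in the controls, is left out. Peg10, Igf2bp1, Plagl1 and Ppp1r9a rose by more than 1 on the log2 scale, and Magel2 fell by 2.17.

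Over the 7 libraries, the genes whose level followed Gas5 most closely were Nasp, a histone chaperone, and Ftsj3, a ribosome assembly factor. Their root mean square differences from Gas5 in centred log2 CPM were 0.01 for both, among 10018 genes with at least 5 CPM. For Snhg1 they were Pole3, a histone-fold subunit of DNA polymerase epsilon, and Sulf1, a heparan sulfate sulfatase, each with 0.02. These are descriptions over 7 libraries of 2 groups, in which a shared group difference is enough for likeness.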

How the data were processed

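The authors aligned the reads with STAR to mm10, per the submitters' processing notes, with versions and annotation not given in the sources used here. Libraries were stranded total RNA, per the labels' protocols. The authors deposited raw, whole read counts for each gene and orientation, per the file headers. The deposited TPM sum to the same total in every library. Deposited FPKM values and an autosome-scaled TPM, treated as a score, were not used. Reverse-orientation (sense) counts made up 97.0% to 97.1% of oriented reads and were tested with edgeR 4.0.16 (R 4.3.3): TMM scaling, filterByExpr, robust quasi-likelihood test with group as the only term, Benjamini-Hochberg over 13639 genes, threshold 0.05. The standard error was taken as the absolute log2 fold change divided by the root of the F statistic, and 95% intervals as 1.96 standard errors. These intervals use the normal quantile in place of the test's degrees of freedom, so in the text and figures they are too narrow.

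The RNAs and gene lists were chosen with earlier results of these data known. Named genes are the 9 RNAs, the 3 of lowest p per list, genes within 100 kb and the 2 most alike in level. Others given with a value were chosen after it was seen, and were not rerun under the alternatives. A gene within that distance is not reported here and is left out of the counts and figure of neighbouring genes. Where a symbol has several rows, the one with most reads was used. Listed symbols not matched were Snhg10, Snhg16, Mir100hg and Snu13. Single values were compared by exact permutation over all 35 splits. Floors of 3 counts cover counting error only. The edgeR step was tested on simulated data. Alternatives used limma 3.58.1 on log2 TPM with pseudocounts of 0.5 and 1, DESeq2 1.42.0, other scalings, filters and each library left out. Fibroblast and mural markers summed to 5.52 to 6.38 CPM in the controls and 8.96 to 10.0 CPM with LPL overexpression, blood markers to 71.7 to 76.9 and 94.5 to 103 CPM, and islet and exocrine markers to 7.10 to 8.25 and 7.97 to 9.66 CPM; mitochondrial reads were 2.16% to 2.39% of counts.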

Additional observations from a re-analysis of the deposited data

Results flagged for a closer look

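In the group of 4 LPL overexpression libraries, 1 library stood apart from the other 3 by Dixon's test for 7 of 61 genes, where chance gives about 1 in 20. Replicate 2 was high for Gas5, at 303 CPM with the others between 290.4 and 292 CPM, and for Dkc1, at 171 against 166 to 167 CPM. The same replicate was low for Plagl1, at 37.9 against 41.3 to 41.5 CPM, and for Trim28, at 289.6 against 317 to 323 CPM. Replicate 4 was high for Srsf2, at 399.9 against 386 to 388 CPM, and for Tet3, at 102 against 92.6 to 93.8 CPM. Replicate 1 was low for Xrn1, at 53.3 against 55.3 to 55.6 CPM. The Gas5 value of replicate 2 lies between the other LPL overexpression libraries and the controls, and the log2 fold change of Gas5 is -0.10 with and without it.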

How the results depend on the processing

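Over 73 results and 1127 recomputed values, 2 reversed in sign, 55 lost a call and 17 gained one. Those that reversed were Snhg12 (-0.0020 without replicate 1 of LPL overexpression, up to 0.071 without another library) and Wars (-0.0074 without control 2, up to 0.049), neither of them called. Malat1 passed with library totals alone (0.18), upper-quartile factors (0.16), limma on TPM with either pseudocount (0.16 and 0.16), no filter on low counts (0.14) and the replicate block (0.10), and lay between 0.11 and 0.18 with single libraries left out. Kcnq1ot1 passed with the deposited count not split by orientation (-0.18), no filter (-0.18) and the replicate block (-0.17), and lay between -0.26 and -0.077 with single libraries left out. The unsplit count is not the sum of the oriented counts, since H19, without reads of the other orientation, went from -1.32 to -1.14. The replicate block gives replicate 4, found only with LPL overexpression, a term of its own, so this library adds nothing to the group difference. The passes with this block therefore largely repeat those without replicate 4 (Malat1 0.11, Kcnq1ot1 -0.16). Gas5 did not pass with library totals alone (-0.055). The cause of these changes was not tested. The number of genes called was 5888, between 4850 (DESeq2) and 6053 (library totals alone) under the alternatives. Of the calls, 50.7% were higher, against 65.1% with library totals alone and 61.5% and 61.3% with limma on TPM, and the antisense split of 37.4% higher became 49.8% with library sizes of the antisense counts. Replicate numbers are not said to pair the libraries. Correlations of same-numbered deviations were -0.02, -0.04 and 0.02, which cannot settle whether cultures were paired. With the replicate block 5794 genes were called. H19 had 8 to 38 reads per library, and Meg3, with 0, could not be tested.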
